A study of Mus musculus with 18 samples.

Results

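The paired myeloid receptors described here are 10 genes, Cd300a, Cd300lf, Lair1, Sirpa, Clec12a and Pilra on the inhibitory side and Cd300c2, Cd300ld, Sirpb1b and Sirpb1c on the activating side. They were taken by symbol from the 55487 genes of a liver RNA-Seq count table, and all 10 were found. They were chosen by their measured changes between these same groups, and as the rule does not say which contrast was used, both count as used. Their own differences between groups are therefore given as a description with no p-value, and where a member is said to pass the rule for a call, that too describes the choice and supports nothing about the members.

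The livers came from male C57BL/6J mice that were bought at 7 weeks of age, acclimatized for 1 week, given an AAV8 vector 1 week before the diets began, kept on diet for 16 weeks and fasted for 4 h before collection. Every mouse, controls included, therefore carried a vector whose TBG promoter drives its cargo in hepatocytes. CON-GFP mice received the GFP vector and a purified control diet, FPC-GFP mice the GFP vector and the FPC diet (fructose, palmitate and cholesterol, with sugared drinking water), and FPC-LIPA mice the FPC diet and a vector carrying human LIPA, the gene of lysosomal acid lipase. Each group held 6 livers, 1 library per mouse, with 16632146 to 37739301 counts per library. FPC-GFP against CON-GFP asks what the diet changed, FPC-LIPA against FPC-GFP asks what the human lipase changed on that diet, and both use the same FPC-GFP libraries.

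Paired receptors are families of closely related surface proteins in which some members restrain a myeloid cell and others drive it. The inhibitory members carry tyrosine motifs (ITIMs) in their tails that recruit the phosphatases SHP-1 and SHP-2, whereas the activating members have short tails and signal through adaptors with ITAM motifs, DAP12 (Tyrobp) and the Fc receptor gamma chain (Fcer1g). In liver they are known mainly from Kupffer cells, monocyte-derived macrophages, dendritic cells and granulocytes. Hepatocytes make up most of the tissue, so the receptor transcripts were a small part of each library, and in whole tissue a gain in myeloid cells cannot be told apart from more transcript per cell.

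As the members were grouped for a shared myeloid setting, the RefSeq promoter windows (GRCm38.p6, 300 bases ending shortly after the start site) were read for 9 of the 10 genes, with Sirpa not in the table. The 7-base core AGGAAGT, of the kind bound by the myeloid ETS factor PU.1, was searched on both strands and occurred in 6 of the 9 windows against 9.35% of 32851 promoter windows. The shorter ETS core AGGAAG, which every match of the longer core contains, was in 9 of 9 against 35.4% of all windows. The motifs were picked after the promoters had been seen, so these counts are descriptions, and a match is no evidence of binding. The 100 bases before the start sites of the neighboring activating genes Cd300c2 (chr11:115001881-115001980, minus strand) and Cd300ld (chr11:114989887-114989986, minus strand) show the core in capitals close upstream of the start.
Cd300c2: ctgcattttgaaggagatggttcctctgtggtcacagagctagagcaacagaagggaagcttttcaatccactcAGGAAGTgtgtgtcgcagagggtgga
Cd300ld: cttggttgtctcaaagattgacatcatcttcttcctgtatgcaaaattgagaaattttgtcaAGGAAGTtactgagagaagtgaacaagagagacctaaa

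Among the inhibitory genes, Cd300lf (chr11:115133974-115134003, minus strand) and Pilra (chr5:137836259-137836288, minus strand) held the core at the start site itself. The SIRP-beta genes Sirpb1b (chr3:15575016-15575045, minus strand) and Sirpb1c (chr3:15848474-15848503, minus strand) held it on the opposite strand, where it reads ACTTCCT. Their windows are near copies, with 254 of 259 aligned bases identical (98.1%) once shifted by 41 bases, so they count as a single observation rather than 2.
Cd300lf: agtggctaaaggAGGAAGTgccgagtgaga
Pilra: ccagatcaataaAGGAAGTtgctggccaca
Sirpb1b: gcagaacaagtcacaatACTTCCTttctct
Sirpb1c: acaagtcacaatACTTCCTttctctacgtg

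Clec12a (chr6:129350093-129350122, plus strand) held instead the palindrome TTGCGCAA, the ideal site of the C/EBP factors that act with PU.1 in myeloid genes, a sequence present in 0.183% of all promoter windows and in no other of the 9 member windows. This match lies inside the GENCODE M21 span of the gene (chr6:129342691-129365303), which starts upstream of the RefSeq start site used here. Of the looser motifs, the C/EBP form TTNNGNAA was in 8 of 9 member windows (40.7% of all), the AP-1 form TGANTCA was in 1 (7.81% of all) and a spaced repeat of the interferon regulatory factor type was in 3 (3.44% of all). The palindrome is itself a match of TTNNGNAA.
Clec12a: gtaggagcaaaTTGCGCAActcgtatgaag

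**Figure D1:**
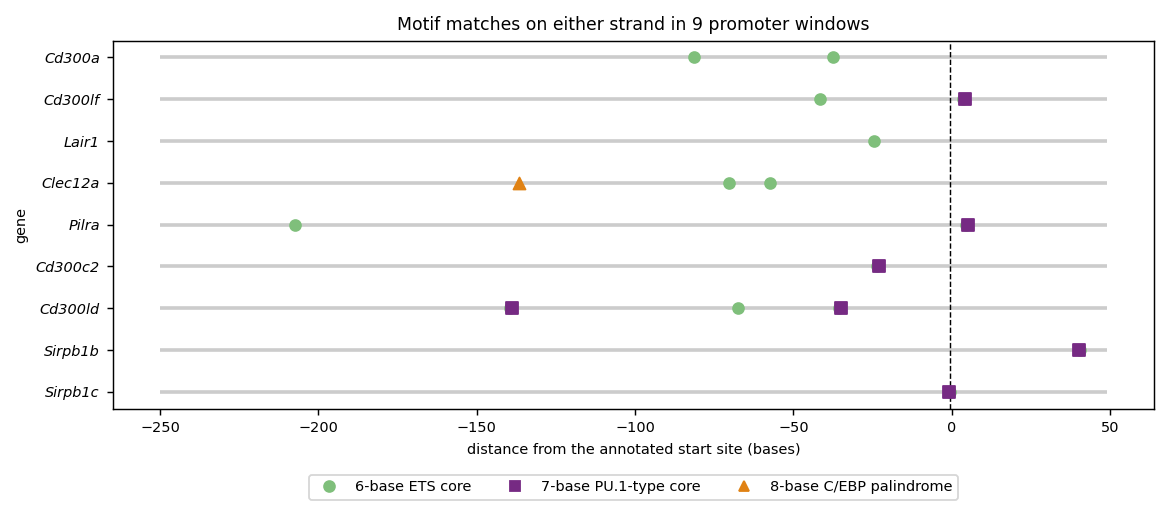
Matches of 3 motifs in the 300-base promoter windows of 9 paired receptor genes, by distance from the annotated start site in bases (grey line, window; green circle, 6-base ETS core; purple square, 7-base PU.1-type core; orange triangle, 8-base C/EBP palindrome). The 7-base core is in 6 windows, and the palindrome is in that of Clec12a alone among the 9. The RefSeq start site of Clec12a lies inside the longer GENCODE span of the gene.

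The tissue label was checked by albumin (Alb), the defining hepatocyte transcript, which lay between 31044 and 70838 CPM (counts scaled to library size and by edgeR's TMM factors). The human LIPA transcript is not a row of the mouse table, so the vector label could not be checked from it, and the mouse Lipa gene was at 336 ± 59.3 CPM in FPC-GFP livers and 300 ± 44.8 CPM in FPC-LIPA livers (SD, n = 6 each). FPC-LIPA libraries 36, 37 and 39 stood apart, with 6.23 to 7.93% of their counts on 82 ribosomal protein genes against 1.36 to 2.79% in the other 15 libraries. The submitters' sample sheet numbers run from 55 to 68 in 14 libraries and lie outside that span in the remaining 4 (CON-GFP 1, CON-GFP 2, FPC-GFP 20, FPC-LIPA 37). The library kit is named both as stranded and as unstranded and the counting strand is not given. Cd300lf and Pilra overlap Rab37 and Zcwpw1, which lie on the other strand. Of Pilra's 100-base transcript stretches, 11.3% also occur in Zcwpw1 when both strands are searched, so reads from these cannot be told apart. Cd300lf shares no such stretch with Rab37, the only gene sharing any being Cd300ld (0.644%). Of all 100-base stretches of their transcripts, 36.0% of Sirpb1b's also occur in Sirpb1c and 26.9% of Sirpb1c's in Sirpb1b, so counts of the pair are uncertain, whereas Sirpa and Clec12a share none with other genes.

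Cd300a, which recognizes phosphatidylserine and phosphatidylethanolamine on dying cells, lies at chr11:114890041-114904654 (GRCm38, as are the positions that follow). It measured 1.30 CPM in the lowest, 2.75 in the median and 3.86 in the highest CON-GFP liver. In FPC-GFP livers the same 3 values were 4.25, 6.42 and 9.27 CPM, and in FPC-LIPA livers they were 11.5, 18.9 and 29.5 CPM. The 3 groups did not overlap at all, and the log2 fold change was 1.27 ± 0.24 (SE) for diet and 1.57 ± 0.26 for LIPA.

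Lair1, an inhibitory receptor for collagens and the complement component C1q (chr7:4003402-4063204), followed the same order. Its lowest, median and highest levels were 1.30, 1.82 and 2.88 CPM in CON-GFP livers, 3.05, 4.17 and 5.82 CPM in FPC-GFP livers and 9.10, 12.4 and 19.9 CPM in FPC-LIPA livers. Again no liver of a group reached the level of the next. The fold changes were 1.12 ± 0.21 for diet and 1.68 ± 0.25 for LIPA on the log2 scale. Lair1 was at 9.10 to 10.1 CPM in FPC-LIPA 31, 33 and 34 and at 14.7 to 19.9 CPM in FPC-LIPA 36, 37 and 39. With the last 3 left out, its LIPA change was 1.18 ± 0.20.

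Clec12a, an ITIM-bearing C-type lectin that senses uric acid crystals and dead cells (chr6:129342691-129365303), measured 3.06, 3.33 and 6.54 CPM (lowest, median, highest) in CON-GFP livers. It measured 6.07, 8.85 and 12.3 CPM in FPC-GFP livers and 19.7, 25.6 and 48.1 CPM in FPC-LIPA livers. The highest control liver, CON-GFP 6, passed the lowest FPC-GFP liver, while every FPC-LIPA liver was above every FPC-GFP liver. Its log2 fold changes were 1.13 ± 0.21 for diet and 1.69 ± 0.23 for LIPA.

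Sirpa, the receptor of CD47 that holds back phagocytosis (chr2:129592835-129632228), was the most counted member. Its lowest, median and highest levels were 7.38, 14.8 and 17.7 CPM in CON-GFP livers, 18.4, 28.8 and 46.2 CPM in FPC-GFP livers and 31.9, 43.0 and 87.0 CPM in FPC-LIPA livers. The control and FPC-GFP livers did not overlap (log2 fold change 1.12 ± 0.23), whereas the FPC-GFP and FPC-LIPA livers did (0.66 ± 0.27). The highest value belonged to FPC-LIPA 33, and the other 5 livers of that group lay between 31.9 and 50.9 CPM. In the 3 libraries rich in ribosomal protein counts Sirpa was at 31.9 to 37.7 CPM, and with these left out the LIPA change was 1.03 ± 0.26, which still did not pass the rule for a call.

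Pilra, an inhibitory receptor for sialylated O-glycoproteins (chr5:137821952-137836281), measured 1.34, 2.53 and 3.59 CPM (lowest, median, highest) in CON-GFP livers, 3.33, 5.89 and 7.74 CPM in FPC-GFP livers and 5.95, 8.44 and 11.9 CPM in FPC-LIPA livers. Neighboring groups overlapped in both steps, with log2 fold changes of 1.16 ± 0.24 for diet and 0.65 ± 0.23 for LIPA.

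Cd300lf, an ITIM-bearing CD300 receptor that binds ceramide and sphingomyelin (chr11:115116214-115133992), was the member with the smallest diet change, while for LIPA that of Pilra was smaller. Its lowest, median and highest levels were 0.967, 1.21 and 1.98 CPM in CON-GFP livers, 1.03, 1.44 and 2.46 CPM in FPC-GFP livers and 0.952, 2.50 and 3.68 CPM in FPC-LIPA livers, so that all 3 groups overlapped. The log2 fold changes were 0.18 ± 0.26 for diet and 0.71 ± 0.32 for LIPA. The diet value turned to -0.016 when FPC-GFP 19, the highest liver of its group, was left out.

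**Figure D2:**
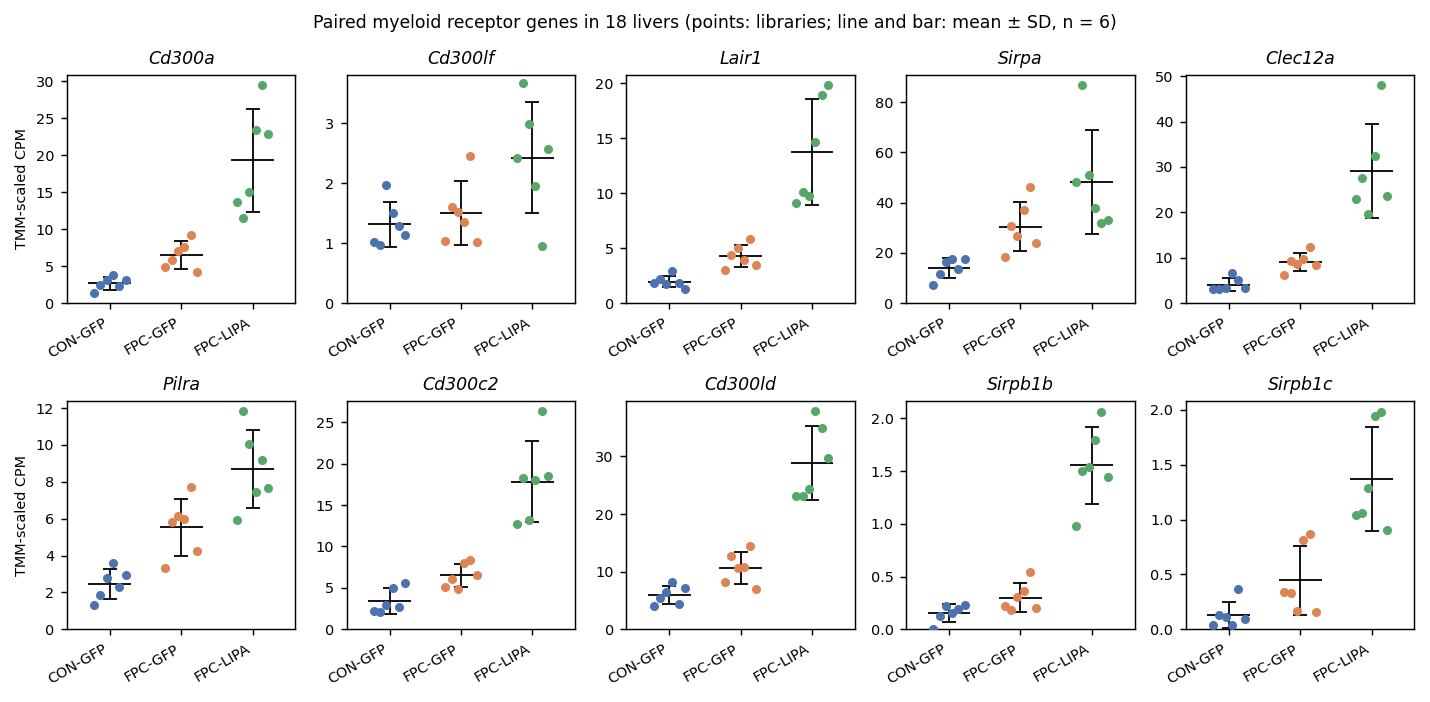
TMM-scaled CPM of each paired receptor gene (vertical axis, starting at 0, its own scale in each panel) in the 3 groups (horizontal axis), with a point for each library and a line and bar for the mean ± SD (n = 6). All 4 activating genes and Cd300a, Lair1 and Clec12a have every FPC-LIPA liver above every FPC-GFP liver, whereas Sirpa, Pilra and Cd300lf do not.

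On the activating side, Cd300c2 and Cd300ld sit beside each other in the CD300 cluster (chr11:114996721-115001880 and chr11:114982274-114989922), and both products couple to ITAM adaptors. Cd300c2 measured 2.06, 2.84 and 5.64 CPM (lowest, median, highest) in CON-GFP livers, 4.88, 6.34 and 8.37 CPM in FPC-GFP livers and 12.7, 18.1 and 26.4 CPM in FPC-LIPA livers. Cd300ld measured 4.12, 5.99 and 8.28 CPM in CON-GFP livers, 7.07, 10.8 and 14.5 CPM in FPC-GFP livers and 23.1, 27.1 and 38.0 CPM in FPC-LIPA livers. For both, the highest control livers overlapped the lowest FPC-GFP livers, and the FPC-LIPA livers stood clear of all others. The log2 fold changes of Cd300c2 were 0.91 ± 0.25 for diet and 1.46 ± 0.21 for LIPA, and those of Cd300ld were 0.83 ± 0.20 and 1.43 ± 0.21.

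Sirpb1b and Sirpb1c (chr3:15495751-15575065 and chr3:15795145-15848528) encode SIRP-beta receptors, which pair with DAP12 and do not bind CD47. Sirpb1b had 0 to 7 counts per CON-GFP liver, 4 to 18 per FPC-GFP liver and 26 to 61 per FPC-LIPA liver. In CON-GFP 1 the count was 0, which allows up to 0.122 CPM (3 counts, counting error only). The corresponding medians were 0.177, 0.261 and 1.52 CPM. Both genes were below the count filter in the diet comparison, and no fold change is given there. For LIPA, the log2 fold change of Sirpb1b was 2.33 ± 0.34, the highest among the members, and no FPC-LIPA liver (0.976 to 2.06 CPM) came near the FPC-GFP livers (0.182 to 0.540 CPM). Sirpb1c had 1 to 13 counts per CON-GFP, 3 to 29 per FPC-GFP and 20 to 64 per FPC-LIPA liver, with medians of 0.105, 0.338 and 1.18 CPM and a LIPA change of 1.57 ± 0.44. Its highest FPC-GFP liver, at 0.870 CPM, was just below its lowest FPC-LIPA liver, at 0.903 CPM.

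A gene was called where its fold change was at least 2 and its adjusted p (edgeR quasi-likelihood test, Benjamini-Hochberg over all genes tested) was under 0.05. In the diet comparison 8 of the 10 members passed the count filter and 5 were called higher, namely Cd300a, Lair1, Sirpa, Clec12a and Pilra, beside 4.76% of the 14307 genes tested (7.2% in either direction). With no minimum fold, 7 of the 8 passed, beside 12.9% of all genes (for LIPA 7 of 10, beside 14.4%). In 3 of the 8 the groups did not overlap, beside 6.19% of all genes. In the LIPA comparison all 10 members were tested and 7 were called higher, Cd300a, Lair1, Clec12a and the 4 activating genes, beside 10.3% of 14620 genes (11.4% in either direction), and in the same 7 the groups did not overlap, beside 3.81% of all genes. Of these 7, Sirpb1b and Sirpb1c passed the count filter only through the FPC-LIPA livers, where they are high, so that their calls follow in part from the filter. Of the 8 members tested in both comparisons, 5 were called for diet and 5 for LIPA. No member was called lower, beside 2.44% of all genes for diet and 1.11% for LIPA. As the members were chosen with these contrasts in view, the counts only describe the choice. Over the 8 members tested in both, the median log2 fold change was 1.12 for diet and 1.44 for LIPA, while the medians of all genes tested were 0.01 and 0.04.

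The diet calls rested on fold changes near 2. Sirpa lost its call without CON-GFP 1 or without FPC-GFP 19. Among the libraries numbered 55 to 68 the called members were Cd300a, Lair1 and Pilra, beside 3.49% of all genes called higher. In the LIPA comparison Sirpb1c lost its call in fits that left out FPC-GFP 11, 12, 13, 20 or FPC-LIPA 36, 37. The other 6 were called each time a library was left out, beside 5.47 to 14.0% of all genes called higher. The LIPA count was 6 without FPC-LIPA 36, 37 and 39, beside 0.728% of all genes called higher. It was also 6 among the libraries numbered 55 to 68, beside 0.631%. Without FPC-LIPA 36, 37 and 39 the LIPA change was lower for Cd300a (1.05), as for Lair1, and for Clec12a (1.39) and Cd300c2 (1.19). The same held for Cd300ld (1.14), Sirpb1b (2.13) and Sirpb1c (1.31). The LIPA change was higher for Pilra (0.75) and Cd300lf (1.015), as for Sirpa. As these fits reuse the libraries that chose the members, they show only how near each value lies to the rule.

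**Figure D3:**
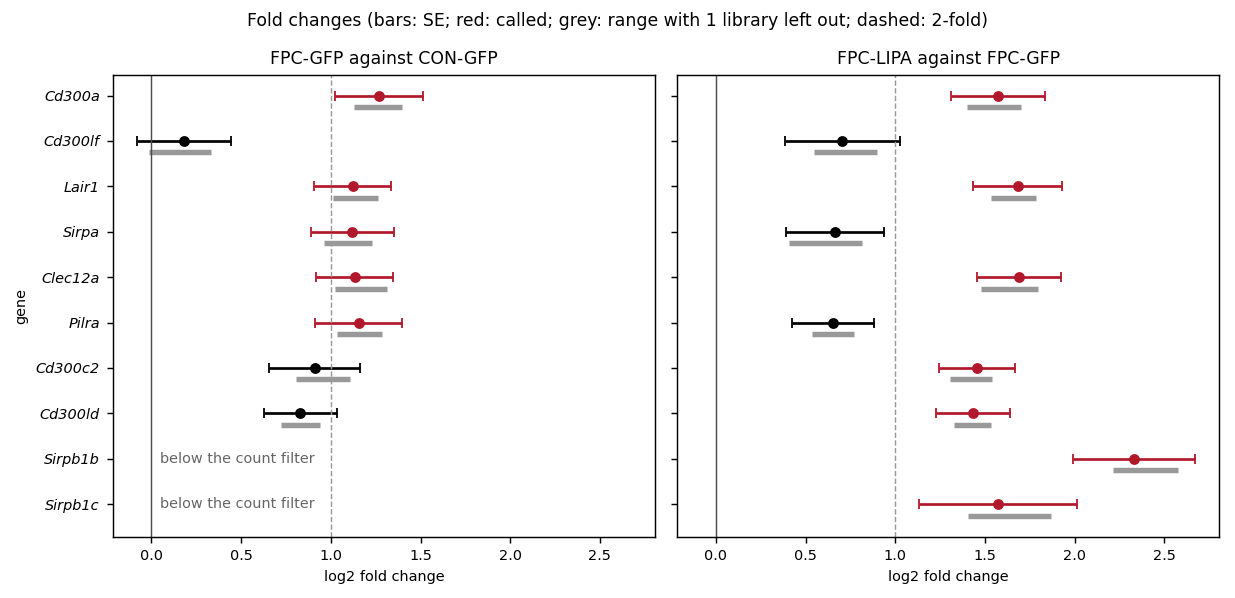
Log2 fold changes of the 10 genes (horizontal axis) for FPC-GFP against CON-GFP and FPC-LIPA against FPC-GFP, with SE bars, called genes in red, a grey line for the range with 1 library left out and a dashed line at a fold of 2. For diet the called genes lie between 1.12 and 1.27, and for LIPA the 7 called genes lie between 1.43 and 2.33.

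Levels can be compared between genes only per length, here as CPM per kilobase of exon. In CON-GFP livers Sirpa (2.84 ± 0.814), Cd300c2 (2.68 ± 1.19) and Cd300ld (2.27 ± 0.609) led and did not differ beyond their SD (n = 6). A gap wider than the SD separated them from Pilra (0.798), Clec12a (0.737) and Cd300a (0.565), which again did not differ beyond their spread, and another gap from Lair1 (0.262) and Cd300lf (0.255). Sirpb1b and Sirpb1c closed the order at 0.0541 and 0.0354. FPC-GFP livers kept the first 8 places, with Sirpa at 6.20 ± 2.02 and Cd300lf at 0.291 ± 0.103.

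In FPC-LIPA livers the activating genes Cd300c2 (14.0 ± 3.86 CPM per kilobase) and Cd300ld (10.9 ± 2.43) stood ahead of Sirpa (9.79), although these neighbors still did not differ beyond their SD. Clec12a (5.26), Cd300a (4.08) and Pilra (2.81) came next, then Lair1 (1.84). Sirpb1b, at 0.540 ± 0.127, had drawn level with Cd300lf at 0.472 ± 0.180 and Sirpb1c at 0.372 ± 0.130.

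Shares within a library do not depend on the scaling between libraries. Per exon length, the 4 activating genes held 42.4 to 54.1% of the members' counts in CON-GFP livers, 41.3 to 49.2% in FPC-GFP livers and 43.4 to 56.4% in FPC-LIPA livers. The FPC-LIPA livers fell into a lower set, 48.5, 43.4 and 48.0% in FPC-LIPA 31, 33 and 34, and a higher set, 55.3 to 56.4% in FPC-LIPA 36, 37 and 39. The share of Sirpa ran the other way, at 24.7, 32.3 and 24.2% in the first 3 and 14.5, 10.4 and 14.0% in the last 3, beside 23.2 to 31.6% in the 12 GFP livers. The higher set is also the 3 libraries with a high ribosomal protein share, and the part of that difference in the composition was not tested. Outside these 3 libraries, no shift of the balance toward either side can be read from the ranges.

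**Figure D4:**
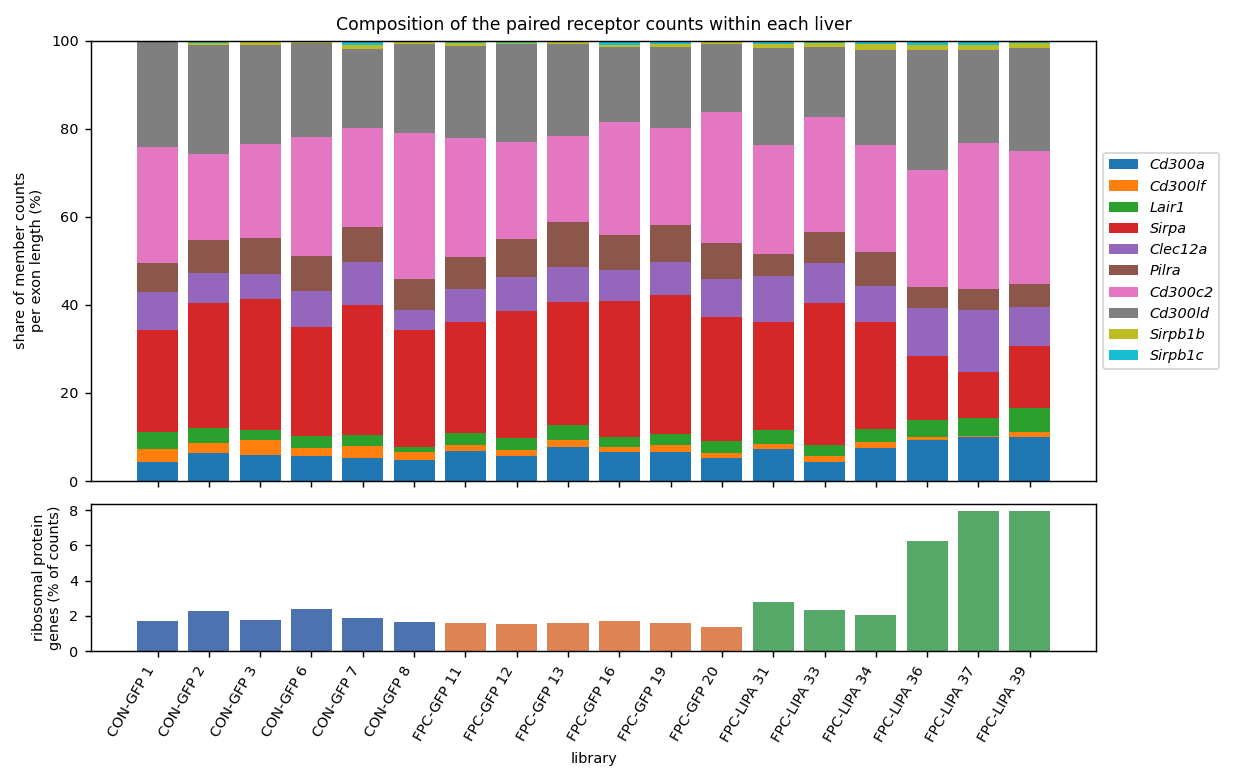
Upper panel, share of the members' counts per exon length held by each of the 10 genes (percent, stacked) in each of the 18 libraries. Lower panel, share of all counts on ribosomal protein genes (percent), colored by group. In FPC-LIPA 36, 37 and 39 Sirpa holds 10.4 to 14.5% of the members' counts, and the ribosomal share is 6.23 to 7.93%.

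Related genes of the same families were counted next. The lists from here on, like the members, were chosen with earlier results of these data known. Their shares and adjusted p are therefore a description and no independent support. Where genes of a list are counted as having risen or fallen, they were called higher or lower, and the uncounted genes may also have changed. Of 12 such genes, 6 passed the filter in each comparison, and 3 were called higher for diet (beside 4.76% of all genes) and 1 for LIPA (beside 10.3%). Pilrb1 and Pilrb2, the activating counterparts of Pilra, measured 1.52 ± 0.629 and 1.18 ± 0.582 CPM in CON-GFP livers. They rose to 3.45 ± 0.873 and 2.66 ± 0.928 CPM in FPC-GFP livers (log2 fold change 1.16 ± 0.26, adjusted p = 0.0057, and 1.15 ± 0.30, adjusted p = 0.0141), with a slight overlap of the groups in both. Cd300e, an activating DAP12 partner, also rose with diet, from 0.884 ± 0.452 to 2.53 ± 0.803 CPM (1.51 ± 0.31, adjusted p = 0.00377). None of these 3 was called for LIPA, with changes of 0.57, 0.36 and 0.52. Whether their LIPA change differed from that of the activating members was not tested.

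Sirpb1a, the third SIRP-beta gene, rose with LIPA from 0.385 ± 0.191 to 1.58 ± 1.03 CPM (2.01 ± 0.55, adjusted p = 0.0248), with overlapping groups. That call was lost without any of FPC-GFP 12, FPC-GFP 20, FPC-LIPA 36 and FPC-LIPA 39, and the change was 0.88 with FPC-LIPA 36, 37 and 39 left out. Cd300lg, a CD300 molecule of endothelial cells and not of myeloid cells, was the most counted of the family at 14.8 ± 2.68, 18.3 ± 1.81 and 14.5 ± 4.22 CPM in the 3 groups, with changes of 0.29 (adjusted p = 0.0933) and -0.33 (adjusted p = 0.209). Pilrb2 lost its diet call without FPC-GFP 19.

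Of 35 other paired or single myeloid receptors in the table, 19 were tested in both comparisons. Of these, 9 were called higher with diet (47.4%, beside 4.76% of all genes) and 8 with LIPA (42.1%, beside 10.3%). None was called lower, and the median log2 fold changes were 0.96 and 1.04. A further 8 passed the count filter only through the FPC-LIPA livers. The 7 of them that were called for LIPA are left out of these counts, because admission that way favors genes that differ. Siglece, a sialic acid receptor with ITIMs, rose with diet from 1.89 ± 0.609 to 6.61 ± 2.29 CPM (1.79 ± 0.26, adjusted p = 0.000439) with no overlap. The other diet calls named by level were Siglec1, the sialoadhesin of macrophages (1.45 ± 0.20, adjusted p = 0.000394), Treml4 (1.39 ± 0.23, adjusted p = 0.000963), the activating receptor Lilra5 (1.32 ± 0.25, adjusted p = 0.00243) and the inhibitory receptor Pirb (1.01 ± 0.18, adjusted p = 0.00199), all without overlap of the groups. Pirb, close to a fold of 2, lost its call without CON-GFP 1, 2 or 7 or FPC-GFP 11 or 19.

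For LIPA the largest of the named changes was that of Clec7a (Dectin-1, which carries its own ITAM-like motif), from 8.31 ± 3.42 to 91.9 ± 64.7 CPM (3.47 ± 0.55, adjusted p = 0.00842). The lowest FPC-LIPA liver, at 12.2 CPM, lay below the highest FPC-GFP liver, at 12.7 CPM, and the change was 2.05 without FPC-LIPA 36, 37 and 39. The inhibitory lectin Clec4a2 rose from 2.63 ± 1.16 to 12.2 ± 9.21 CPM (2.19 ± 0.42, adjusted p = 0.011) and its activating relative Clec4n (Dectin-2) from 3.99 ± 1.25 to 18.0 ± 14.1 CPM (2.16 ± 0.41, adjusted p = 0.011), both with no overlap of the groups. Trem2, a DAP12-coupled lipid receptor, rose in both comparisons (1.43 ± 0.39, adjusted p = 0.0169, and 1.76 ± 0.41, adjusted p = 0.0167), as did Lilra5 (1.39 ± 0.28 for LIPA, adjusted p = 0.0126).

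Over the 25 of these and the family genes that were tested in both comparisons, 12 rose with diet and 9 with LIPA. With the 7 genes admitted through the FPC-LIPA livers the LIPA count was 16. It was 10 without FPC-GFP 12 or without FPC-LIPA 36, and it was 3 without FPC-LIPA 36, 37 and 39, where Clec7a and Clec4n were among the called and Clec4a2, Trem2, Lilra5 and Sirpb1a were not.

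The adaptors and enzymes behind the receptors were next. Tyrobp (DAP12) measured 12.6 ± 4.43 CPM in CON-GFP livers, 27.6 ± 7.67 CPM in FPC-GFP livers and 100.2 ± 47.6 CPM in FPC-LIPA livers. It rose in both steps without overlap of the groups, by 1.13 ± 0.23 (adjusted p = 0.00352) and 1.86 ± 0.30 (adjusted p = 0.00844), although the diet call was lost without CON-GFP 1. Fcer1g, the other main ITAM adaptor, rose with diet from 8.23 ± 2.52 to 19.3 ± 5.36 CPM (1.21 ± 0.21, adjusted p = 0.00148), and was at 20.4 ± 14.9 CPM in FPC-LIPA livers (0.09 ± 0.37, adjusted p = 0.877). The LIPA value of Fcer1g was -0.37 without FPC-LIPA 33. With FPC-LIPA 36, 37 and 39 left out, the LIPA change was 1.18 for Tyrobp and 0.68 for Fcer1g.

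Of 29 adaptors, kinases and phosphatases tested, 11 rose with diet (37.9%, beside 4.76% of all genes) and 4 with LIPA, and none was called lower. The LIPA share of 13.8% was near the 10.3% of all genes, so that it is not a result about the list. The diet calls included the kinase Syk (1.02 ± 0.21, adjusted p = 0.00343) and the scaffold Lcp2 (1.19 ± 0.17, adjusted p = 0.000471), both with no overlap of the groups. Syk, close to a fold of 2, lost its call without CON-GFP 1 or 2 or FPC-GFP 12 or 19. The LIPA calls besides Tyrobp were Hcst, the DAP10 adaptor, from 0.633 ± 0.202 to 1.98 ± 0.883 CPM (1.62 ± 0.35, adjusted p = 0.0141), Pik3r5, a regulatory subunit of phosphoinositide 3-kinase (1.37 ± 0.46, adjusted p = 0.0474), and Lcp2 (1.18 ± 0.32, adjusted p = 0.0239).

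The LIPA count of 4 fell to 2 when FPC-GFP 11, FPC-GFP 13 or FPC-LIPA 37 was left out, and to 1, Tyrobp, without FPC-LIPA 36, 37 and 39. Lcp2 lost its LIPA call without any of the first 3 libraries, and Pik3r5 lost it in the fits leaving out FPC-GFP 11, 12, 13, 16, 20 and FPC-LIPA 33, 36, 37. Ptpn11, which encodes the ITIM-bound phosphatase SHP-2, moved the other way with LIPA, from 70.9 ± 9.23 to 41.5 ± 11.5 CPM (-0.77 ± 0.19, adjusted p = 0.0198), short of the fold of 2 and with every FPC-LIPA liver below every FPC-GFP liver. Csk, a kinase that restrains the Src family, was at 63.2 ± 2.04 and 46.7 ± 12.6 CPM in the same groups (-0.43 ± 0.18, adjusted p = 0.0861). Without FPC-LIPA 36, 37 and 39 the LIPA change was -0.44 for Ptpn11 and -0.16 for Csk.

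**Figure D5:**
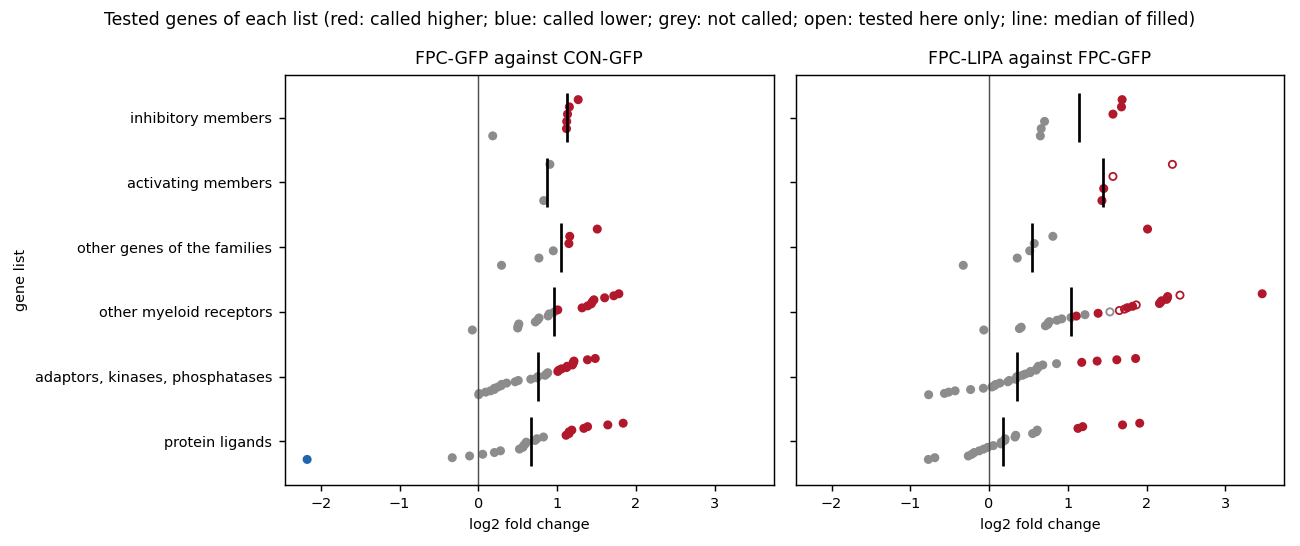
Log2 fold changes (horizontal axis) of the tested genes of 6 lists in both comparisons, with red for called higher, blue for called lower, grey for not called, open circles for genes tested in that comparison only and a black line at the median of the genes tested in both. The medians of the other myeloid receptors are 0.96 for diet and 1.04 for LIPA, and those of the adaptors, kinases and phosphatases are 0.76 and 0.35.

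Of 22 genes for protein ligands, all tested, 8 rose and 1 fell with diet (36.4% rose, beside 4.76% of all genes). With LIPA 4 rose (18.2%, near the 10.3% of all genes, so that it is not a result about the list). For none of the 22 was every FPC-LIPA liver above every FPC-GFP liver, beside 3.81% of all genes. All 4 LIPA calls were lost without FPC-LIPA 36, 37 and 39. The complement components C1qa, C1qb and C1qc, which bind LAIR1, rose with diet by 1.11 ± 0.14 (adjusted p = 0.000232), 1.34 ± 0.18 (adjusted p = 0.000314) and 1.39 ± 0.19 (adjusted p = 0.000278), with no overlap of the groups. Col3a1, a collagen ligand of LAIR1, rose from 20.7 ± 6.43 to 46.4 ± 7.92 CPM with diet (1.15 ± 0.20, adjusted p = 0.00148) and to 150 ± 134 CPM with LIPA (1.70 ± 0.40, adjusted p = 0.0174). The LIPA value leaned on FPC-LIPA 37, at 416 CPM, and was 1.05 without it. The call was lost without FPC-LIPA 36, 37 and 39 (0.73), and among the libraries numbered 55 to 68 it was lost for LIPA (1.02) and for diet (0.96). Col4a1 rose with diet (1.19 ± 0.27, adjusted p = 0.00666), a call lost without FPC-GFP 11. The gene that fell was Sftpa1, a surfactant protein that SIRPA binds, from 4.77 ± 2.72 to 1.05 ± 0.370 CPM (-2.18 ± 0.38, adjusted p = 0.00157), named here after its value was seen.

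Cd47, the ligand of SIRPA, was at 56.7 ± 4.29 CPM in control livers and at 52.9 ± 3.69 CPM after the FPC diet (-0.11 ± 0.09, adjusted p = 0.381). In FPC-LIPA livers it was at 115 ± 65.3 CPM (1.13 ± 0.30, adjusted p = 0.0231), with a range of 55.2 to 225 CPM. The LIPA call was lost without FPC-GFP 12 or without FPC-LIPA 36, 37 or 39, and the change was 0.28 with those 3 FPC-LIPA libraries left out. Sftpd (1.91 ± 0.63, adjusted p = 0.0439) and Cd200 (1.19 ± 0.38, adjusted p = 0.0391) made up the LIPA calls. Of the 12 fits that left out 1 library, Sftpd kept its call in those without FPC-LIPA 33 and FPC-LIPA 34, and Cd200 in these and in the fit without FPC-GFP 19. Clec4g, a sialylated ligand of PILRA, was the most counted ligand gene at 64.2 ± 18.4, 74.4 ± 6.85 and 113 ± 49.6 CPM in the 3 groups, with changes of 0.20 (adjusted p = 0.35) and 0.61 (adjusted p = 0.0651).

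Markers of cells that could carry the receptors moved in the same comparisons. Of 8 Kupffer cell markers, 7 were called higher with diet (87.5%, beside 4.76% of all genes). With LIPA 1, Adgre1, was called (12.5%, near the 10.3% of all genes, so that it is not a result about the list). All 8 LIPA values were above 0 (median 0.87), and 5 of the 8 passed with no minimum fold, beside 14.4% of all genes. Their summed level was 259 to 389 CPM in CON-GFP livers, 442 to 726 CPM in FPC-GFP livers and 695 to 1369 CPM in FPC-LIPA livers. Of 10 monocyte and macrophage markers, 8 were tested in both comparisons. Of these, 5 rose with diet (62.5%, beside 4.76% of all genes) and 4 with LIPA (50.0%, beside 10.3%). The sums were 53.7 to 122, 147 to 383 and 450 to 777 CPM, mostly Lyz2. Ptprc, the leukocyte antigen CD45, was at 6.26 ± 2.20 and 8.86 ± 2.37 CPM in the GFP groups (0.50 ± 0.23, adjusted p = 0.118) and rose to 28.2 ± 23.8 CPM with LIPA (1.67 ± 0.38, adjusted p = 0.0159). FPC-LIPA 37 was at 76.5 CPM of Ptprc and the other 5 livers at 14.5 to 22.4 CPM. Without FPC-LIPA 37 the change of Ptprc was 1.06, and among the libraries numbered 55 to 68 it was 1.05 and the call was lost. The summed level of the 10 receptors was 22.2 to 49.5, 50.7 to 108 and 140 to 204 CPM in the 3 groups. Relative to Ptprc it was 3.99 to 8.71, 7.04 to 10.4 and 2.66 to 11.0, the value of 2.66 being FPC-LIPA 37 and the next lowest in that group 6.64. How much of the receptors' differences goes with these cell markers was not tested.

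Markers of other leukocytes were mostly below the filter. The counts that follow stand beside 4.76% of all genes called higher for diet and 10.3% for LIPA. Of 9 neutrophil markers 3 were tested, 0 were called higher with diet and 2 with LIPA. The list summed to 1.83 to 3.94, 2.80 to 6.06 and 7.75 to 21.7 CPM in the 3 groups. Its defining gene Ly6g had 0 counts in every CON-GFP and FPC-LIPA library and passed 3 counts only within the FPC-GFP group. Of 7 dendritic cell markers tested in both comparisons, 1 rose with diet and 4 with LIPA, with sums of 9.58 to 17.1, 9.53 to 16.5 and 20.6 to 23.1 CPM. Of the markers tested in both comparisons, 0 of 3 plasmacytoid, 1 of 4 B cell, 1 of 5 T cell and 1 of 1 NK cell markers rose with LIPA, and 1, 0, 0 and 0 did with diet, where 1 T cell marker fell. A further 5 markers called for LIPA, Xcr1, Siglech, Ms4a1, Cd3d and Gzma, passed the count filter only through the FPC-LIPA livers and are not counted here. Of 6 endothelial, 6 stellate, 5 cholangiocyte and 7 hepatocyte markers, 1 endothelial marker was called with diet and none with LIPA.

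The genes whose levels followed each member most closely over the 18 libraries, by the root-mean-square difference of centered log2 CPM among 12719 genes, included other members of the 10. For Cd300a they were Tyrobp (0.23) and Fcgr3 (0.27), against a spread of Cd300a itself of 1.23. For Lair1 they were Ms4a6c (0.26) and Clec12a (0.32), and for Clec12a they were Igsf6 (0.29) and Lair1 (0.32). For Sirpa they were Cyth4 (0.26) and Pilra (0.27), and for Pilra they were Themis2 (0.23) and Pilrb1 (0.24).

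Cd300c2 was closest to Cd48 (0.30) and to its neighbor Cd300ld (0.32), Cd300ld to Slfn2 (0.25) and Fcgr4 (0.27), and Cd300lf to Fbxw17 (0.23) and Lsp1 (0.33). Sirpb1b was closest to Cd300a (0.43) and Tyrobp (0.43). Sirpb1c had no close profile among the genes compared, with Rgs2 (0.54) and Mest (0.57) nearest. Genes compared needed a mean of at least 1 CPM and a test in both comparisons, which left out Sirpb1b and Sirpb1a as neighbors. With 1 to 29 counts per GFP library, the profile of Sirpb1c also carries much counting error. These distances share the same libraries and groups and are given as a description.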

How the data were processed

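Liver RNA was sequenced in 18 mice (6 per group). Per the study's methods, the authors trimmed reads with Trimmomatic, aligned them with HISAT2 2.1.0 to GRCm38 (mm10) and counted reads per gene with featureCounts (Subread). The annotation version and strand setting are not given in the sources used here. The deposited table holds raw counts of 55487 genes, of which 18 columns were mapped to samples by title and 5 further columns were not used.

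Each comparison was fitted on its own 12 libraries with edgeR 4.0.16 (R 4.3.3), using filterByExpr, TMM factors and the quasi-likelihood test, with Benjamini-Hochberg adjustment over all genes tested and genes called where they changed by a fold of 2 or more with adjusted p under 0.05. Levels are TMM-scaled CPM. On simulated counts the fit was tested before use. Positions and exon lengths come from GENCODE M21 (55227 genes matched) and promoters from RefSeq. Gene lists held inhibitory and activating members, other genes of the families, other myeloid receptors, adaptors and effectors, protein ligands and markers of liver cell types. Members and lists were chosen with earlier results of these data known. Besides the members, genes were named where they had the 2 highest mean CPM in a list of receptors, adaptors or ligands, were among up to 5 called genes of highest mean CPM per list and comparison, had the highest mean CPM of a cell type list, were among the 2 closest profiles of a member, or were Lipa or Ptprc. Other markers named beside the list counts (Adgre1, Ly6g, Siglech) and Sftpa1 fall outside this rule.

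The replicates are separate mice by their labels. The title of FPC-LIPA 37 reads 37b, its sheet number is 228, and what the letter stands for is not given. Libraries of a group differed by 15.4 to 591 times the chi-square that sampling alone would give per degree of freedom. Alternatives were other size factors (DESeq2 1.42.0, upper quartile, library size alone), the DESeq2 Wald test, a robust fit, other count filters, all 18 libraries in 1 fit, libraries numbered 55 to 68, removal of the gene length trend, no minimum fold and leaving out each library. Leaving out FPC-LIPA 36, 37 and 39 together was chosen after seeing the data.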

Additional observations from a re-analysis of the deposited data

Results flagged for a closer look

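Values in 132 groups of 6 libraries were searched for a library far from the other 5 (Dixon's criterion, which by chance marks about 1 group in 20), and 16 were found. Among the paired receptors these were Sirpa in FPC-LIPA 33, at 87.0 CPM with the others between 31.9 and 50.9 CPM, and Sirpb1c in CON-GFP 7, at 0.364 CPM.

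FPC-LIPA 33 was also the high library for the inhibitory receptors Pirb (28.2 CPM) and Siglece (31.5 CPM) and for Pik3r5 (9.35 CPM). FPC-LIPA 37 was high for Clec4a2 (29.9 CPM), Clec4n (45.4 CPM), Lcp2 (31.2 CPM) and Col3a1 (416 CPM), and FPC-LIPA 39 for Clec4g (211 CPM). Among the controls CON-GFP 6 was high for Clec4a2 (2.32 CPM), Clec4n (4.93 CPM), Hcst (0.828 CPM) and Pilrb2 (2.29 CPM). FPC-GFP 11 was high for Col4a1 (106 CPM) and low for Sirpb1a (0.0312 CPM).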

How the results depend on the processing

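The LIPA count of 7 called members was 6 or 7 in every alternative, beside 0.631 to 14.4% of all genes passing the same rule. The diet count of 5 was 3 among the libraries numbered 55 to 68, beside 3.49% of all genes. The diet count was 7 with library size alone (beside 7.37%), which moved the diet median of all genes from 0.01 to 0.21. It was otherwise 4 to 7, beside 2.93 to 12.9%. The diet change of Cd300lf was -0.016 to 0.33 with 1 library left out, lowest without FPC-GFP 19. Over all genes, diet calls went from 1030 to 3410 with no minimum fold. LIPA calls went from 1671 to 1016 with library size alone, 96 among the libraries numbered 55 to 68, 3102 with no minimum fold, 116 without FPC-LIPA 36, 37 and 39, and 856 to 2612 with 1 library left out. Diet calls among adaptors and effectors (11) were 7 in the numbered libraries. LIPA calls among related receptors (16) were 9 with the filter at 1 CPM in 6 libraries, 3 in the numbered libraries, 3 without the 3 FPC-LIPA libraries and 10 to 16 with 1 library left out. LIPA calls among adaptors and effectors (4) were 2 with library size alone, 1 in the numbered libraries, 2 with the length trend removed, 1 without the 3 FPC-LIPA libraries and 2 to 4 with 1 library left out. Of 15 named related genes called for LIPA, 11 lost the call in the numbered libraries and 11 without the 3 FPC-LIPA libraries, with Clec7a, Clec4n and Tyrobp called in both. In the numbered libraries Col3a1, Pilrb2, Pirb, Syk, Trem2 and Tyrobp lost the diet call. The cause of these changes was not tested. The smaller fits hold fewer libraries, and the part of that in the lost calls was not tested either.

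Named genes near 0 changed sign without a call. The diet value of Cd47 was 0.090 with library size alone. The LIPA value of Siglec1 was 0.13 in the numbered libraries, 0.048 with the length trend removed, 0.43 without the 3 FPC-LIPA libraries and -0.25 to 0.12 with 1 library left out. That of C1qc was 0.038 with upper-quartile factors, 0.0046 with the 1 CPM filter, 0.070 in the numbered libraries, 0.58 without the 3 FPC-LIPA libraries and -0.27 to 0.13 with 1 library left out. With the length trend removed Fcer1g was at -0.26, C1qb at -0.13 and C1qa at -0.061. With 1 library left out the LIPA value ran from -0.37 to 0.23 for Fcer1g, from -0.12 to 0.70 for Cd300e and from -0.73 to 0.61 for Siglece, each lowest without FPC-LIPA 33.

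No paired analysis was possible because the groups share no replicate number. Depth limits Sirpb1b and Sirpb1c in the GFP groups, where libraries hold 0 to 29 counts.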
